A study of Homo sapiens with 28 samples.

Results

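Peaks of N6-methyladenosine (m6A) around stop codons were taken from the peak lists of 14 immunoprecipitation (IP) libraries of caRNA, chromatin-associated RNA recovered with the chromatin pellet of fractionated nuclei. A peak was a member when its summit lay within 200 bases of the stop codon and in an exon of the Ensembl canonical transcript of a protein-coding gene, on the strand of the peak. Chromosomes 1 to 22 and X were used, and summits from 1000 bases upstream to 100 bases downstream of any transcript start were left out. The rule kept 37194 of 495694 peaks, or 7.50%. They fell at 5322 of the 19537 annotated canonical stop codons, or 27.2%. The rule uses position only and no measured height.

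RNA was enriched with an m6A antibody after removal of rRNA, and each IP library has 1 peak list. The cell lines were HepG2, from a hepatoma, K562, from chronic myelogenous leukaemia, and NB4, from acute promyelocytic leukaemia. There were 2 libraries each of HepG2 WT and of K562 WT. K562 also had 2 libraries of a Control and 2 of an RBFOX2 KD group, and NB4 had 3 of each. The Control cells carried a non-targeting short hairpin RNA and the KD cells a hairpin against RBFOX2, both delivered by lentivirus, and which RBFOX2 hairpin these libraries carried is not given in the sources used here. The 14 input libraries have no table of their own and are not analysed here. The knockdown addresses whether m6A on caRNA depends on RBFOX2, an RNA-binding protein known as a splicing regulator, which the study places at promoters above all. The labels do not say whether libraries of a group came from separate cultures, so the p-values measure the spread between these libraries.

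In mRNA, m6A is deposited by a nuclear methyltransferase complex built on METTL3 and METTL14, mostly within a short sequence known as DRACH, which is any base but C, then A or G, then AC, then any base but G. The mark is known to gather near the stop codon and the start of the 3′ UTR and in long internal exons. Reader proteins of the YTH family bind it and act on splicing, export and decay of the RNA. MeRIP-seq places the mark to within the length of the RNA fragments and not to a base, and a listed peak needs both the mark and enough RNA from the gene.

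Short stretches of the transcripts are shown for genes on which the results turn, each of 25 bases around the A of the GGACU, or else of another DRACH, that lies closest to the usual summit. They were read from hg38 on the strand of the gene, with capitals on the motif in DNA letters. The first set comes from genes with a stop-codon peak in all 14 lists.
SNRNP35 (chr12:123466112-123466136, plus strand): aaagacactgGGACTcgaggacaag
NUP62 (chr19:49908348-49908372, minus strand): atgcgcacatGGACTcactgcagtg
TRUB2 (chr9:128309394-128309418, minus strand): aaaggtcaatGGACTtgacccaact
RBSN (chr3:15073774-15073798, minus strand): aggggggcacTGACTgaccagcagt
PHF21A (chr11:45933956-45933980, minus strand): agagactaaaTAACAgagcccctct
In RBSN and PHF21A the motif shares bases with the stop codon itself, with its A 2 bases before the first base of the codon in RBSN and within the codon in PHF21A. Those of SNRNP35 and NUP62 lie 155 and 119 bases upstream of the codon in the coding sequence, and that of TRUB2 lies 144 bases downstream in the 3′ UTR.

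The second set comes from genes listed around the stop codon in every library of 1 line and in none of the others.
KLF1, K562 (chr19:12884744-12884768, minus strand): accctctcctGGACTcgcgttccca
TAL1, K562 (chr1:47219599-47219623, minus strand): gcaaggcggtGGACTtgaactttcc
TMEM273, K562 (chr10:49155761-49155785, minus strand): actttcacatGGACTgaatattgga
OXER1, HepG2 (chr2:42762755-42762779, minus strand): agcactggcaGGACTcaggtgggtg
SOX13, HepG2 (chr1:204126220-204126244, plus strand): gttggtacttGGACTtgttcgtgcc
CTBP2, NB4 (chr10:124989458-124989482, minus strand): tgggaccaagAGACAgtgaaaaata
AGAP2, NB4 (chr12:57726471-57726495, minus strand): gcggaccgctGGACAgacgcaccca
A GGACU lay within 75 bases of the usual summit in 6 of 6 K562 genes, 4 of 6 HepG2 genes and 1 of 5 NB4 genes for which a stretch was read, and in 5 of 14 genes listed in every library. These counts are too small to compare. The A of the motif lay 5 bases from the usual summit in KLF1, 2 in TMEM273, 4 in OXER1, CTBP2 and AGAP2, 15 in SOX13 and 17 in TAL1. In SHANK2, a HepG2 gene with no stretch shown, it lay at -73 bases. The motif was chosen as the closest to the summit, so short distances follow in part from that choice.

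The lists held 22635 to 44043 peaks and were called at an effective depth of 10.8 M to 30.6 M reads, recovered from the fold and p-value of the summits. The pileups of both HepG2 libraries and of NB4 Control 3 were not whole numbers, so their depth is approximate. Exon peaks of marker genes followed the labels. They were listed for 6 of 9 HepG2 markers in HepG2, 1 in K562 and 0 in NB4, for 7 of 9 K562 markers in K562 and 2 in each other line, and for 8 of 9 NB4 markers in NB4, 3 in K562 and 1 in HepG2. RBFOX2 itself had no stop-codon peak in any list and an exon peak in 2 of 6 K562 and 1 of 6 NB4 lists, so the lists do not check its depletion. In a list, peaks on the wrong strand of a stop codon came to between 3.48% and 6.24% of the members.

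The lists held 2288 to 2916 stop-codon peaks each, and their share of the list was highest in the shortest lists. HepG2 WT held 2288 and 2484, or 10.1% and 9.08% of all listed peaks. K562 WT held 2908 and 2916, which was 6.60% and 6.73%. In K562 Control there were 2634 and 2659, and in K562 RBFOX2 KD 2698 and 2537. These 4 libraries lay between 6.91% and 7.15%. NB4 Control held 2564, 2621 and 2721, or 8.69%, 8.22% and 8.15%, and NB4 RBFOX2 KD 2762, 2699 and 2703, or 6.96%, 7.17% and 7.37%.

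Measured against peaks in the exons of canonical mRNAs alone, the share was close to constant. It was 27.9% ± 0.898 (SD, n = 2) in HepG2 WT, 28.01% ± 0.0735 (n = 2) in K562 WT, 27.4% ± 1.48 (n = 2) in K562 Control, 28.4% ± 0.224 (n = 2) in K562 RBFOX2 KD, 27.6% ± 0.382 (n = 3) in NB4 Control and 27.3% ± 0.158 (n = 3) in NB4 RBFOX2 KD. Group means lay between 27.3% and 28.4%. K562 WT exceeded HepG2 WT by 0.136 points (exact permutation test, two-sided, p = 1), and NB4 Control exceeded K562 Control by 0.220 points (p = 0.8). Of the whole list, the share in K562 WT was 2.93 points below that in HepG2 WT (exact permutation p = 0.33, the smallest that 2 libraries against 2 allow) and that in NB4 Control 1.32 points above that in K562 Control (p = 0.1, the smallest that 3 against 2 allow).

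**Figure D1:**
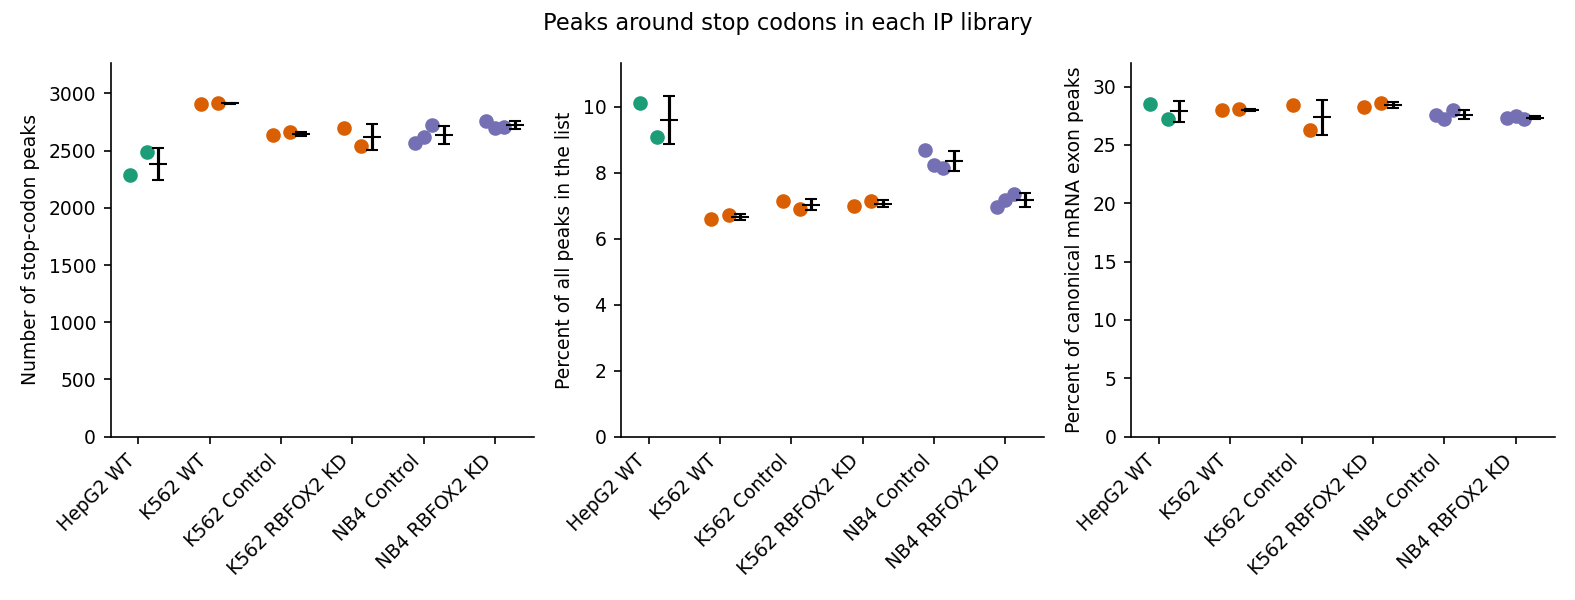
Stop-codon peaks in each of the 14 IP libraries, as a number (left), as a percent of all peaks in the list (middle) and as a percent of peaks in canonical mRNA exons (right). Points are libraries, black ticks the group mean with bars of 1 SD. The exon share stays between 26.3% and 28.6% while the share of the list runs from 6.60% to 10.1%.

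Along the transcript, summits rose steeply at the stop codon. Per exonic base, summits within 200 bases were 2.32 to 2.72 times (median 2.48) as dense as those in the next 400 bases upstream and 2.53 to 2.98 times (median 2.80) as dense as those in the next 400 bases downstream, in 14 of 14 libraries. Nearly all members, 99.4%, lay in the last exon. The limit at 200 bases cuts through the flank of this rise. In the last 50 bases inside it lay 6900 peaks, 442 to 543 per list, with a median fold of 7.41 over the local background. In the first 50 bases outside lay 4708, 303 to 386 per list, with a median fold of 7.29.

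On the upstream side, few summits lay just before the last exon junction, and their number rose over the bases after it. In the profile around that junction, 28 to 82 summits per library fell in the 100 bases before it and 153 to 280 in the 100 bases before those, so the former held 17.8% to 34.0% of the latter. From 0 to 99 bases after the junction there were 264 to 572, and from 150 to 249 bases after it 820 to 1129. MACS extends reads along the genome and not across introns, so pileup next to a junction is set partly by the read extension, and its part in the dip was not tested.

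**Figure D2:**
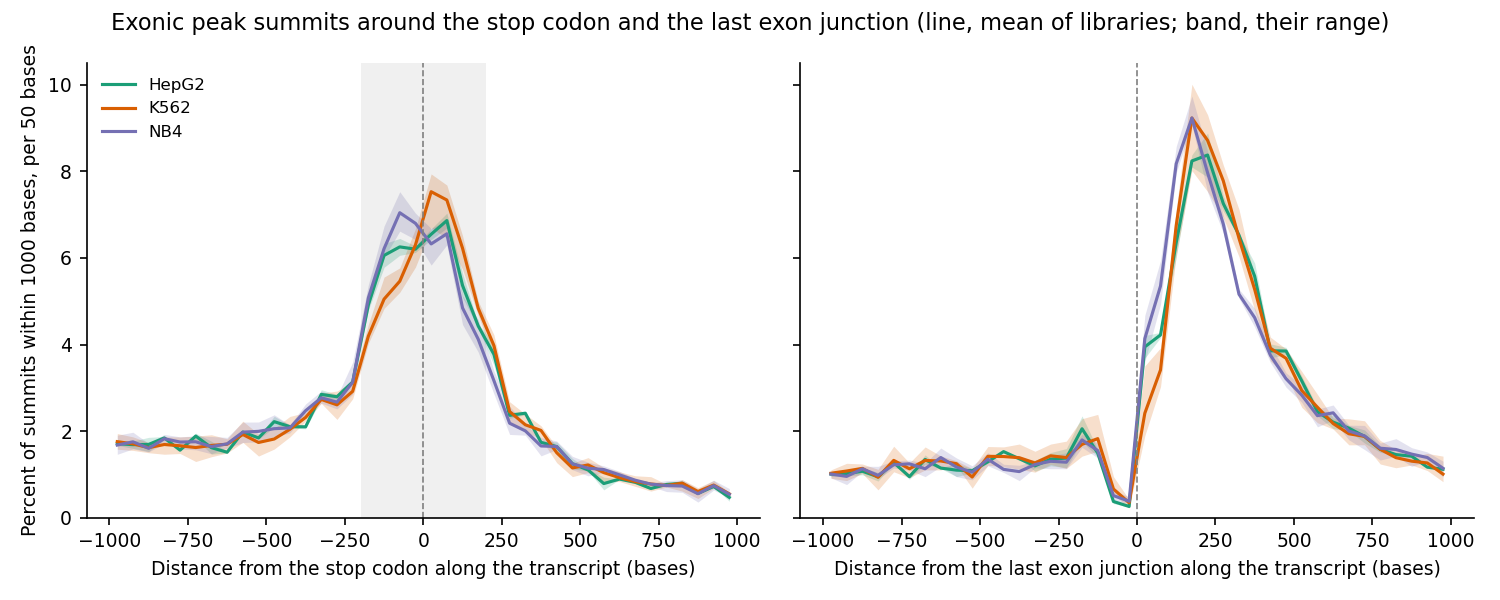
Exonic peak summits per 50 bases along the transcript around the stop codon (left) and the last exon junction (right), as a percent of summits within 1000 bases; lines are means of the libraries of a line and bands their range. Shading marks the 200 bases to either side that define the members. Summits gather at the stop codon and after the last junction, and few lie in the 100 bases before it.

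Within the members, the place of the summit moved with the distance from the last junction to the stop codon. Where the junction lay under 50 bases before the codon, the median summit over libraries was 112 bases 3′ of the codon. It came to 77 bases for junctions from 50 to under 100 bases before the codon, 50.5 from 100 to under 150 and 20 from 150 to under 200. It then passed to the 5′ side, with -18.2 bases from 200 to under 300, -75.2 from 300 to under 600 and -75 at 600 or more. Measured from the junction, the medians were 143, 155.5, 178.5, 194, 227, 360.5 and 1053 bases. A short last coding stretch therefore went with summits in the 3′ UTR, and a long one with summits in the coding sequence.

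The comparison of junctions from 50 to under 100 with those from 300 to under 600 bases was chosen after seeing the data. The median summit lay at 75.6 ± 8.67 bases in the former and -72.9 ± 13.1 in the latter (SD, n = 14), a difference of -148.5 bases in the same direction in 14 of 14 libraries (exact sign-flip permutation test, p = 0.000122, the smallest it can give). The rule itself offers fewer exonic positions upstream where the junction is close. The median of the positions on offer was 58 and -2 bases in the same bins, and the summit medians less these medians still differed by -88.7 bases. With the 200 bases counted along the spliced transcript, where positions on offer are centred near the codon in both bins (medians 4 and -2), the difference was -146 bases, or -140.5 after subtracting them, with 14 of 14 libraries lower in each (exact permutation p = 0.000122). Libraries of a line share cells, so the 14 are not fully independent.

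The share of transcripts with any exon peak that had one at the stop codon changed with the same distance. Its median over libraries was 27.8% for junctions under 50 bases away, and 37.0%, 48.5%, 54.0%, 63.7%, 60.7% and 35.7% for those from 50, 100, 150, 200, 300 and 600 bases on. The share was thus highest where the junction lay from 200 to under 600 bases upstream. These values are descriptions, since a longer exon also offers more positions to both kinds of peak.

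**Figure D3:**
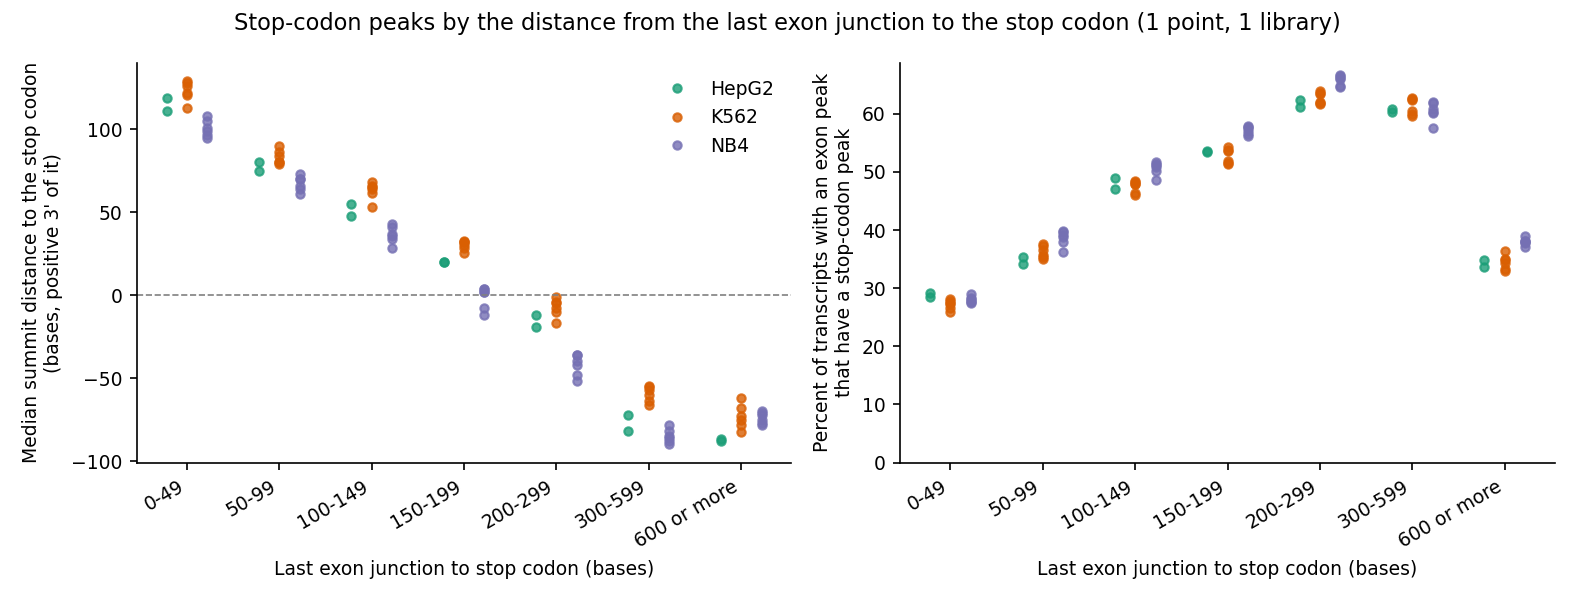
Median summit position relative to the stop codon (left, bases, positive to the 3′ side) and the percent of transcripts with an exon peak that have a stop-codon peak (right), by the distance from the last exon junction to the stop codon; each point is a library. The median falls from 112 to -75 bases from the nearest to the farthest junctions, and NB4 points lie lowest in all bins but the last 2.

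Summits lay further 5′ in NB4 than in K562. In all members, 54.3% ± 2.79 (SD, n = 2) of summits in K562 Control and 44.997% ± 1.01 (n = 3) in NB4 Control lay 3′ of the codon, and the 2 groups did not overlap. The same held at the 844 stop codons listed in all 14 libraries, a comparison chosen after seeing the data. There the median summit lay at 2 and 0 bases in HepG2 WT, 12 and 15 in K562 WT, 15 and 9 in K562 Control, 18 and 16 in K562 RBFOX2 KD, -30, -25 and -23 in NB4 Control and -13.5, -18 and -17 in NB4 RBFOX2 KD. Every NB4 library was thus on the 5′ side of the codon and every K562 library on the 3′ side.

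NB4 Control differed from K562 Control by -38 bases at these stop codons (exact permutation p = 0.1, the smallest it can give), and by -12.1 points in the share of summits 3′ of the codon. K562 WT differed from HepG2 WT by 12.5 bases (exact p = 0.33, the smallest it can give). The median width of members ran from 289 to 330.5 bases in NB4 and from 353 to 442 in K562, so peak width moved with this shift, and its part was not tested. With the junction from 150 to under 200 bases upstream, the library medians ran from -12 to 4 bases in NB4 and 25.5 to 32.5 in K562, while with 600 bases or more they ran from -78 to -70 and -82.5 to -62 and overlapped.

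Transcripts with a stop-codon peak were compared, within each library, with transcripts that had an exon peak elsewhere only. Among them 54.0% ± 0.710 (SD, n = 14) ended in UGA, against 48.7% ± 0.312, a difference of 5.28 points that was positive in 14 of 14 libraries (exact sign-flip permutation test, p = 0.000122, adjusted over 8 features 0.000244). UAA was correspondingly rarer, with 23.7% against 28.8%, in 14 of 14 libraries. UAG made up 22.3% and 22.4% (exact permutation p = 0.534). Of all canonical stop codons, 49.3% were UGA. The comparison was chosen after seeing the data. Many of the same transcripts are listed in several libraries, so these p-values measure agreement between libraries and not the spread between transcripts.

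The base that follows the codon was then considered, because UGA and UAA followed by C give UGAC and UAAC, each of which begins a DRACH when the next base is not G, while UAG followed by C does not. Of transcripts with an exon peak, 51.4% ± 2.099 (SD, n = 14) of those ending in UGA and C and 48.3% ± 1.75 of those ending in UGA and another base had a stop-codon peak, a difference of 3.06 points in 14 of 14 libraries (exact permutation p = 0.000122, adjusted over 4 comparisons 0.000163). A following C went with a difference of 3.46 points at UAA (14 of 14 libraries, exact permutation p = 0.000122) and of -1.34 points at UAG (higher in 2 of 14, exact permutation p = 0.0256). The split does not isolate the motif. UGAC and UAAC before a G form no DRACH, and a codon followed by AC can form one although its next base is not C. The part of the motif in these differences was not tested. With another base than C, UGA stood 7.60 points above UAA, at 48.3% against 40.7% (14 of 14 libraries, exact permutation p = 0.000122). Per library, 559 to 711 transcripts with an exon peak ended in UGA and C, and 284 to 381 in UAA and C. The libraries share many of these transcripts, so agreement between libraries does not measure the spread between transcripts.

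The length of the 3′ UTR differed by less than the spread between libraries, with medians of 1649 ± 52.7 and 1652 ± 45.4 bases (exact permutation p = 0.768). A 3′ UTR under 200 bases was found for 4.54% of the transcripts with a stop-codon peak and 5.996% of the others, values given with no test because such a 3′ UTR offers fewer positions within the 200 bases of the rule. The last junction lay at a median of 202.75 and 165 bases before the codon, in the same order and likewise with no test, as the bins above describe.

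Compared with other exon peaks of the same lists, stop-codon peaks ranked between those in coding exons and those further along the 3′ UTR. Each peak was given its percentile of -log10 q within its own list, and the median percentile was 63.9 ± 1.85 (SD, n = 14) for members, 67.2 ± 2.80 for coding exon peaks away from stop codons and 57.4 ± 1.49 for distal 3′ UTR peaks. Both differences had the same direction in 14 of 14 libraries. Median widths followed the same order, with 354, 398 and 337 bases. Each of these comparisons had exact sign-flip permutation p = 0.000122, adjusted over 10 comparisons 0.000153. Libraries share cells and many peaks, so these p-values measure agreement between libraries and not the spread between peaks. The width difference from distal 3′ UTR peaks was 2.04 bases, and not significant (exact permutation p = 0.456), when summits within 100 bases were taken as members.

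GGACU, the most frequently methylated form of DRACH, was counted within 75 bases of each summit. It was present at 28.95% ± 1.04 (SD, n = 14) of members, 22.7% ± 1.74 of coding exon peaks and 31.1% ± 1.53 of distal 3′ UTR peaks. In windows 250 bases to either side it was present at 13.5%, 13.8% and 12.8%, and on the opposite strand at 10.3%, 11.9% and 10.2%. The share at members was higher than at coding exon peaks and lower than at distal 3′ UTR peaks (each exact permutation p = 0.000122, adjusted 0.000153). With summits within 100 bases as members, the latter difference was 0.0943 points (exact permutation p = 0.802). Libraries share many sites and so the same sequences. The p-values therefore measure agreement between libraries and not the spread between sites. Per 100 members, 5.61 copies lay in the 20 bases from the summit on, against 2.01 in the 20 bases that start 200 bases upstream. Any DRACH was present at 98.95%, 97.3% and 98.4%, so it did not tell the classes apart in a window of this size.

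The motif moved with the rank of the peak. With the members of each library divided by -log10 q into 4 parts of equal size, GGACU was present at a median of 24.3% of windows in the weakest part, then 27.7%, 30.7% and 32.6% in the strongest. Libraries ranged from 23.1% to 26.6% in the weakest and from 29.5% to 35.7% in the strongest, with no overlap. Around the codon itself, 17.0% of all 19537 stop codons had GGACU within 75 bases. The value was 29.98% at the 844 listed in all 14 libraries, 20.9% at the 4478 listed in 1 to 13 and 13.8% at the 3638 that had no peak although the transcript had an exon peak.

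**Figure D4:**
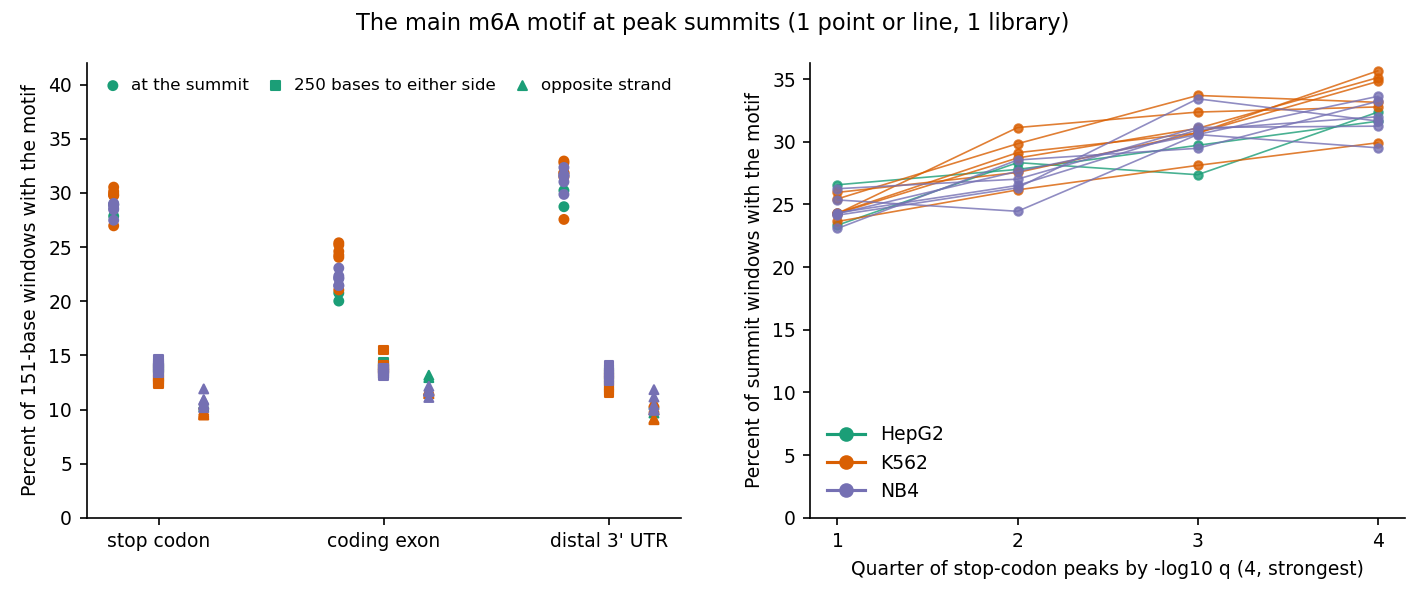
Left, percent of windows of 75 bases to either side that hold the main m6A motif at the summit, 250 bases to either side and on the opposite strand, for stop-codon, coding exon and distal 3′ UTR peaks; each point is a library, coloured by line (green HepG2, orange K562, purple NB4). Right, percent of summit windows with the motif in 4 equal parts of the stop-codon peaks, ranked by -log10 q. All summit values exceed the flanking and opposite-strand values, and the strongest part (29.5% to 35.7%) lies above the weakest (23.1% to 26.6%).

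The motifs tied to RBFOX2 stood out less from their surroundings than GGACU, whose share at the summits of members exceeded that in the flanks by 15.5 ± 1.63 points (SD, n = 14). UGCAUG, the canonical motif of RBFOX2, was present at 3.72% of summit windows and 3.88% of flanking windows, and AGAUG, a motif the study connects with RBFOX2 and m6A, at 21.96% and 20.7%, an excess of 1.21 ± 0.598 points that was positive in every library. UGCAUG was more frequent at members than at coding exon peaks (3.01%, exact permutation p = 0.000122) and less frequent than at distal 3′ UTR peaks (4.16%), but the flanks differed as well (2.92% and 4.25%). After subtracting the flanks, the difference from coding exon peaks turned to -0.268 points. AGAUG was less frequent at members than at coding exon peaks (25.5%, exact permutation p = 0.000122) and differed from distal 3′ UTR peaks (21.5%) by 0.468 points (exact permutation p = 0.150). The former turned to 0.548 points and the latter to -2.53 points after subtracting the flanks. Motifs were searched on the strand of the transcript, and a match is not a bound site. Here too the p-values measure agreement between libraries that share many sites, and not the spread between sites.

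Many stop codons were listed in every library. Of the 5322 listed at all, 844 (15.9%) had a peak in all 14 lists, 1923 (36.1%) had one in at least 1 list of each line and 754 (14.2%) had one in 1 list only. As merged regions of overlapping peaks, 1895 of 5327 regions with a member (35.6%) had a peak in all 14 libraries, against 8.92% of all 86263 regions, 27.1% of regions with a coding exon peak and 28.2% of those with a distal 3′ UTR peak. The stop codons shared by a pair of libraries were 67.3% to 79.0% of those listed in either for libraries of the same group, 62.6% to 74.8% for other pairs of the same line and 41.5% to 52.8% for pairs of different lines.

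The genes with the highest mean percentile among the 844 included SNRNP35, RBSN, GMEB2, CCNF, DCAF5, PHF21A, CHD7, NUP62, TRUB2, RSF1, CLINT1, COA4, ZNF746 and HMGXB3. Several act in the nucleus: PHF21A reads histone H3, CHD7 and RSF1 remodel chromatin and NUP62 is a nucleoporin. SNRNP35, a protein of the minor spliceosome, had the highest mean percentile, 99.9 ± 0.156 (SD, n = 14). Its stop codon lies in the last exon, exon 2 of 2, at chr12:123466279-123466281, and its summits lay 125 to 150 bases upstream. The fold over the local background was 7.08 and 11.3 in HepG2 WT, 13.1 and 35.2 in K562 WT, 71.3 and 53.0 in K562 Control, 28.6 and 36.0 in K562 RBFOX2 KD, 26.1, 14.2 and 24.3 in NB4 Control and 17.3, 19.7 and 21.5 in NB4 RBFOX2 KD. Folds were lowest in HepG2, as they were across members, whose library medians ran from 4.19 in HepG2 WT 1 to 10.6 in K562 RBFOX2 KD 2.

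The summits of several of these genes varied little between libraries. NUP62 had them 88 to 97 bases upstream in 14 libraries, COA4 70 to 78 bases upstream and ZNF746 65 to 82 bases downstream. In RBSN, an endosomal protein, they lay 16 to 48 bases upstream of the codon in exon 14 of 14, with folds from 8.18 to 10.7 in HepG2, 30.03 to 56.7 in K562 and 14.3 to 33.1 in NB4. In contrast, the summit of TRUB2, a pseudouridine synthase of mitochondria, lay between -26 and 150 bases, and that of CCNF, a cyclin, between -182 and 41.

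Some stop codons were listed in every library of a line and in none of the others, 242 in HepG2, 107 in K562 and 130 in NB4. As merged regions these were 266 of 5327 (4.99%), 171 (3.21%) and 159 (2.98%), beside 4.60%, 6.33% and 3.38% of all regions called by the same rule. The line with fewest libraries has the easiest rule to meet, since HepG2 has 2 and the other lines 6 each. Of the transcripts listed only in HepG2, 41 of 242 (16.9%) had an exon peak elsewhere in a K562 or NB4 list. The corresponding numbers were 20 of 107 (18.7%) for K562 and 32 of 130 (24.6%) for NB4. For all the others no exon peak of any kind was listed in the other lines, where less RNA and less methylation cannot be told apart.

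In K562 the leading genes included regulators of red cell development. KLF1, an erythroid transcription factor, had folds of 26.5 and 31.3 in WT, 58.1 and 45.8 in Control and 52.9 and 49.5 in RBFOX2 KD, with summits 131 to 134 bases downstream of its stop codon at chr19:12884885-12884887 in exon 3 of 3. TAL1, another transcription factor of blood stem cells and the erythroid lineage, had 19.4 and 21.0, 51.5 and 34.0, and 47.3 and 52.7, with summits 90 to 92 bases downstream. In both genes WT values were lower than those of cells with a hairpin, and Control and KD values overlapped. The median fold of all members had the same order, with 7.68 and 7.42 in K562 WT and 8.97 to 10.6 in the K562 hairpin libraries. BTNL9 ran from 21.3 to 50.3, TMEM273 from 21.1 to 39.5, HOXB8, a homeobox factor, from 17.6 to 39.4, and the histone gene H3C4 from 11.0 to 14.9. H3C4 has near-identical copies, so its reads may belong to several genes. None of these 6 had an exon peak in HepG2 or NB4.

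In NB4 the leading genes were CTBP2, AGAP2, P2RY8, TRPM2, NLRC5 and DENND3. CTBP2, a transcriptional corepressor, had folds of 11.4, 17.6 and 12.4 in Control and 11.4, 15.2 and 10.1 in RBFOX2 KD. P2RY8, a G-protein-coupled receptor of blood cells, had 24.1, 18.1 and 19.9 in Control and 18.5, 16.8 and 18.6 in KD, with summits 56 to 58 bases upstream. It lies in the region that X and Y share, so its reads cannot be placed on X alone. For AGAP2 the folds were 24.7, 22.1 and 15.6 in Control and 19.6, 12.9 and 14.5 in KD. Control and KD overlapped in each of the 3 genes. NLRC5, an activator of MHC class I genes, ran from 6.88 to 13.5.

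In HepG2 the leading genes were OXER1, STARD13, HEG1, SOX13, ZBED3 and SHANK2, with no exon peak in any K562 or NB4 list. OXER1, a receptor for oxidised eicosanoids with 1 exon, had folds of 11.0 and 14.9. STARD13 had 9.51 and 12.8, with summits 7 and 8 bases downstream of the codon. SOX13, a transcription factor, had 7.44 and 10.7, and both summits lay 83 bases downstream.

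Genes of the m6A machinery were themselves listed. Of 8 genes of the methyltransferase complex, 5 (62.5%) had a stop-codon peak in at least 1 list and 3 (37.5%) in all 14, beside 27.2% and 4.32% of all canonical stop codons. All 8 had an exon peak in at least 1 list. Over all genes, 8960 had an exon peak, and 5322 of these had one at the stop codon. METTL14, the RNA-binding partner of the catalytic subunit, was listed in all 14 libraries, with folds from 5.21 to 22.3 and summits 128 to 139 bases upstream. CBLL1 and ZC3H13, accessory subunits, were also listed in all 14, with 4.57 to 27.1 and 4.62 to 14.1. METTL3, the catalytic subunit, had no stop-codon peak in any list, although an exon peak was listed in all 14, and RBM15 had none either, with an exon peak in 13. Of 12 readers and erasers, 9 (75%) were listed and 0 in every library, and all 12 had an exon peak. YTHDC1, the nuclear reader, was listed in 10 libraries with folds from 2.11 to 7.41. The libraries were all 6 of NB4, HepG2 WT 2, both of K562 WT and K562 Control 2. It was not listed in HepG2 WT 1, K562 Control 1 or either K562 RBFOX2 KD library. All 6 K562 lists held an exon peak of the gene.

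Of 11 genes of Polycomb repressive complex 2, which methylates histone H3 at lysine 27, 5 (45.5%) were listed and 2 (18.2%) in every library. Beside these stand 27.2% and 4.32% of all canonical stop codons. An exon peak was listed for 7 of the 11. PHF19 and SUZ12 were listed in all 14, with folds from 3.36 to 13.3 and from 2.90 to 13.2. MTF2, an accessory subunit, was listed in both HepG2 lists (3.77 and 5.38) and all 6 K562 lists (8.95 to 12.4) and in no NB4 list, while an exon peak of MTF2 elsewhere was present in all 6 NB4 lists. EZH2, the catalytic subunit, had no exon peak in any list. Among 28 lysine methyltransferase and demethylase genes, 21 (75%) were listed and 5 (17.9%) in all 14, and 27 had an exon peak. NSD2, KDM7A and KMT2A were in all 14, and NSD1 was in all K562 and NB4 lists (24.5 to 35.6 and 14.02 to 21.0) and had no exon peak in HepG2.

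Of 20 immediate early genes, which are transcribed within minutes of a stimulus, 14 (70%) were listed and 4 (20%) in all libraries. Beside these stand 27.2% and 4.32% of all canonical stop codons. An exon peak was listed for 18 of the 20. JUN had folds of 2.43 and 3.86 in HepG2, 15.4 to 33.7 in K562 and 6.59 to 9.01 in NB4, with summits 20 to 26 bases upstream of the codon in its only exon. EGR1 had summits from 28 bases upstream to 3 downstream, with folds from 2.56 to 21.0. Of 8 SOCS genes, inhibitors of cytokine signalling, 3 (37.5%) were listed, and 7 had an exon peak. CISH was in 9 lists, and SOCS6 and SOCS1 in 1 each. Of 11 genes of the CCR4-NOT deadenylase, which shortens poly(A) tails, 5 (45.5%) were listed and 0 in every library, and 8 had an exon peak.

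Zinc finger genes, many of them repressors with a long last exon, were listed for 270 of 513 members (52.6%), and 23 (4.48%) in all 14 lists. Beside these stand 27.2% and 4.32% of all canonical stop codons. An exon peak was listed for 431 of the 513 zinc finger genes. Over all genes, 8960 had an exon peak, and 5322 of these had one at the stop codon. The median distance of zinc finger genes from the last junction to the stop codon was 1385 bases, against 153 over all genes. ZNF746, ZNF768, ZNF830 and ZNF500 ranked highest, with mean percentiles of 98.6, 97.8, 97.5 and 97.3. Shares below 27.2% were counted in several other groups, 3 of which are given here. The mitochondrial ATP synthase had 0 of 15 genes listed, with a median 3′ UTR of 148 bases. Cytosolic ribosomal protein genes had 10 of 80 (12.5%), with 169 bases, and 6 of 31 SR and hnRNP splicing factor genes (19.4%) were listed, where the median 3′ UTR was 1687 bases and the median junction distance 68. In these 3 groups an exon peak was listed for 3 of the 15, 18 of the 80 and 18 of the 31 genes. The level of RNA was not measured here, and its part in these counts was not tested.

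Replication-dependent histone genes, which have no intron and no poly(A) tail, were listed for 15 of 69 members (21.7%), beside 27.2% of all canonical stop codons. An exon peak was listed for 17 of the 69. In K562 15 were in at least 1 list, against 1 in HepG2 and 2 in NB4, and 6 were in every K562 list. Exon peaks of any position were listed for 16 histone genes in K562, 6 in NB4 and 1 in HepG2. H3C4, H1-6, H3C10 and H3C15 were in all 6 K562 lists and in none of the others, with folds of 11.0 to 14.9, 14.2 to 29.6, 6.29 to 12.4 and 3.95 to 9.01. H1-6 is best known from the testis. Counts are uncertain where copies are near-identical, and the K562 WT lists were the longest of all.

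On RBFOX2 KD none of the 5 measures taken on stop-codon peaks passed the exact permutation test over both lines. The number was 2646.5 in K562 Control and 2617.5 in KD on average, and 2635.33 ± 79.5 and 2721.33 ± 35.3 (SD, n = 3) in NB4. Over both lines the log2 number differed by 0.02 (exact permutation test with labels exchanged within lines, p = 0.633, adjusted over 5 measures 0.767). The share of mRNA exon peaks differed by 0.419 points (p = 0.767 by the same exact test, adjusted 0.767), and the median percentile of members by 0.283 (p = 0.7, adjusted 0.767).

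The share of the whole list was lower on KD in NB4, and in K562 the groups differed by 0.0318 points. In NB4 it was 8.35% ± 0.295 (SD, n = 3) in Control and 7.17% ± 0.205 in KD, with no overlap (exact permutation p = 0.1, the smallest it can give), and in K562 7.03% ± 0.167 (n = 2) and 7.06% ± 0.0969 (exact permutation p = 1). Over both lines the difference was -0.577 points (exact permutation p = 0.0667, adjusted 0.25), and 4 of 5 KD libraries lay below the mean of their Control group. The NB4 KD lists were longer, 38009 against 31603 peaks on average, and deeper, 19.1 M ± 2.56 against 13.7 M ± 2.76 effective reads. With summits scaled to the shallowest library of the line, the NB4 difference was -1.16 points. The difference of the KD effect between the lines was 1.22 points (exact permutation p = 0.05, adjusted over 5 measures 0.25).

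The share of summits 3′ of the stop codon was higher on KD by 2.18 points in NB4, where groups did not overlap (exact permutation p = 0.1, the smallest it can give), and by 1.26 points in K562 (exact permutation p = 1). Over both lines it was 1.72 points higher, and 5 of 5 KD libraries lay above the mean of their Control group (exact permutation p = 0.1, adjusted 0.25). In K562 the difference turned to -0.720 points without K562 Control 2, whose members were the widest (442 bases) and had the lowest 3′ share of the K562 libraries (52.3%).

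A region was called lost when all Control libraries of a line listed it and none of the KD libraries did, and gained in the opposite case. In K562, 56 of 3497 regions with a member (1.60%) were lost, beside 1.74% of all regions, and 25 (0.715%) were gained, beside 1.76%. In NB4, 28 of 3854 (0.727%) were lost, beside 0.610% of all regions, and 49 (1.27%) were gained, beside 3.68%. The lost shares thus lay near the background, and the gained shares below it. Leaving out a library makes the rule easier to meet. In K562, 208 regions with a member were lost without K562 Control 1 (6.17%, beside 14.03% of all regions by the same rule), 102 without K562 Control 2 (3.17% beside 5.83%) and 191 without K562 RBFOX2 KD 1 (5.67% beside 6.20%). The lost share lay below the background whichever of the 4 K562 libraries was left out. The K562 gained count reached 89 without K562 Control 2 (2.76% beside 4.64%). In NB4 the counts reached 59 lost without NB4 Control 1 (1.58% beside 1.42%) and 101 gained without NB4 Control 3 (2.67% beside 7.19%). Gained shares lay below those of all regions in each of the 10 counts made without a library.

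**Figure D5:**
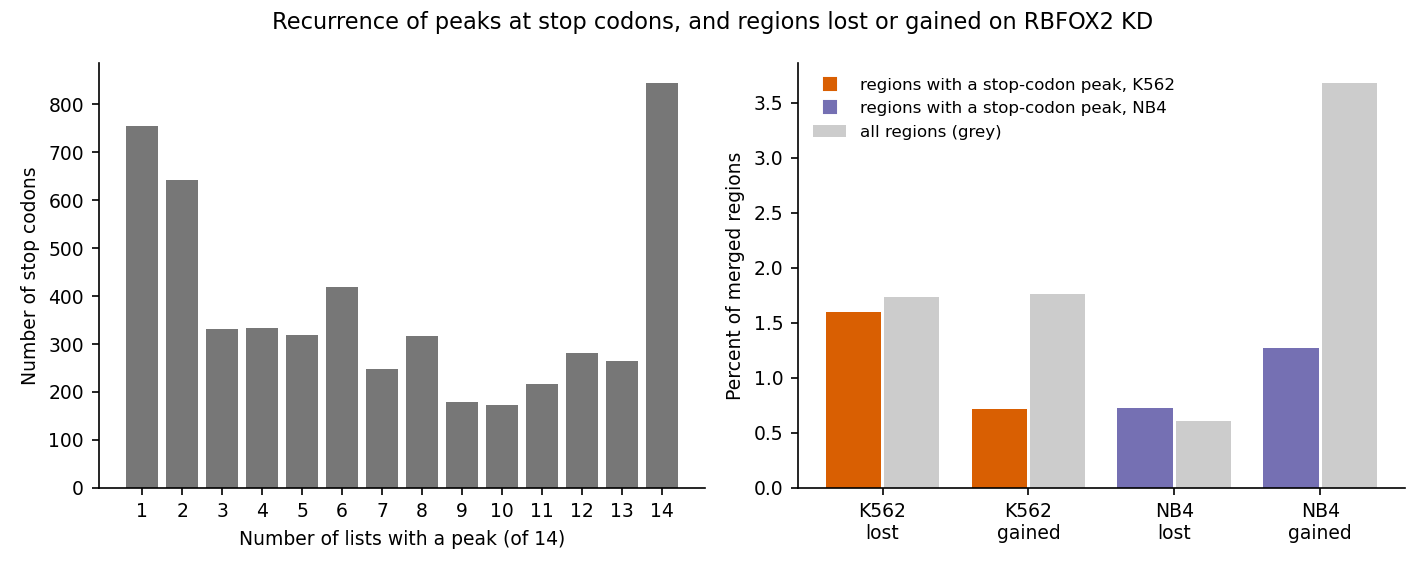
Left, number of stop codons by how many of the 14 lists hold a peak there. Right, percent of merged regions lost or gained on RBFOX2 KD, coloured for regions with a stop-codon peak (orange K562, purple NB4) and grey for all regions. The largest bar on the left is 844 stop codons in all 14 lists, and gained shares of stop-codon regions (0.715% and 1.27%) lie below those of all regions (1.76% and 3.68%).

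Most lost and gained regions ranked low in their lists. Their median percentile where listed was 16.8 for lost and 12.1 for gained regions in K562, and 23.2 and 25.1 in NB4, while members as a whole lay near 63.9. In K562 the strongest lost regions were at LSM12 (folds of 6.53 and 8.22 in Control), RHBDF1 (8.13 and 6.39), COX6A1 and MRPL53, and the strongest gained regions at RAB31 (7.95 and 5.68 in KD), CLEC3B (5.71 and 7.57), VKORC1 (4.59 and 7.42) and HEY1. LSM12 is an Lsm-domain protein, COX6A1 a subunit of cytochrome oxidase, RAB31 a small GTPase of vesicle traffic and VKORC1 the vitamin K reductase.

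In NB4 the strongest lost regions were at DUSP16 (6.95, 6.69 and 11.5 in Control), GLIS2 (9.23, 6.41 and 5.54), DENND11 and GNPTG, and the strongest gained regions at NOP58 (2.67, 2.70 and 2.59 in KD), RICTOR (6.37, 7.71 and 6.57), ABCB10 and IMMT. DUSP16 is a phosphatase of MAP kinases, NOP58 a core protein of box C/D snoRNPs and RICTOR the defining subunit of mTORC2. MBOAT1, a lysophospholipid acyltransferase, was the only gene gained in both lines. Its region was chr6:20102241-20102425 in K562, with folds of 4.20 and 6.43 in KD, and chr6:20102205-20102423 in NB4, with 5.25, 6.50 and 4.85, and no Control library of either line had a peak there.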

How the data were processed

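m6A was measured by MeRIP-seq of caRNA in 28 samples, and 14 IP libraries have a peak list. Per the methods and processing notes, the authors trimmed reads with Trimmomatic 0.39, aligned them to hg38 with HISAT2 2.1.0 and GENCODE release 29 and split strands with SAMtools 1.9. MACS2 called peaks per strand and library at q under 0.01, with reads extended by 150 bases along the genome, up to 5 duplicates kept and a genome size of 1.3e+08. Whether inputs served as background is not given in the sources used here. The deposited fold over the local background (a ratio), -log10 p-value, -log10 q-value and score are the authors' own MACS output. The score is a whole-number form of the -log10 q-value. Read counts are not in the lists. Count models were therefore not used, and every difference concerns listed peaks, not methylation levels.

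Summits were placed on canonical transcripts of GENCODE release 44 with pandas 2.3.3, numpy 2.4.6 and scipy 1.17.1 under Python 3.11.15, and matplotlib 3.10.9 drew the plots. Effective reads were recovered from fold and p-value. Pileups came out whole, to within 0.02, in 11 libraries. The other 3 were rescaled. Distances were counted along the genome, in bases from the nearest base of the stop codon. Exact permutation tests had the library as the unit, and exact sign-flip tests compared values within the 14 libraries. P-values were adjusted by the Benjamini-Hochberg method. Scripts were tested on simulated data.

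Named genes were the 15 in all lists and the 6 per line with the highest mean percentile, the 4 strongest lost and gained regions per line, up to 4 members per gene list and METTL3, METTL14, RBM15, YTHDC1, RBFOX2, EZH2 and TGFB1. Members, lists and tests were chosen with earlier results of these data known. Of the stop codons listed, 51 share their position with another gene, and 602 peaks lay in exons of several genes. A total of 3516 summits near stop codons were left out as promoter summits. Sequences on chromosome 8 and 1 gene that the rule names are not reported here.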

Additional observations from a re-analysis of the deposited data

How the results depend on the processing

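Of 326 recomputed values, 287 kept their direction and their side of the threshold, or stayed within 1.5 times for counts. Comparisons of KD with Control within a line, and those between lines, cannot reach 0.05. Their side of the threshold was thus fixed, and only their direction could change. The causes of the exceptions were not tested. With summits within 100 bases, the log2 number on KD in K562 differed by 0.0283, the percentile over both lines -0.263, the GGACU difference from distal 3′ UTR peaks 0.0943, the width difference from them 2.04 bases and the AGAUG difference from them 2.02 points. The last was 0.662 points with distances along the spliced transcript. With promoter summits kept, the exon share differed by -1.26 points between K562 WT and HepG2 WT and by -0.666 points between NB4 Control and K562 Control. As an excess over flanks, UGCAUG differed by -0.268 points from coding exon and -0.0773 points from distal 3′ UTR peaks, and AGAUG by 0.548 and -2.53 points. With summit windows of 75 bases, 64 regions were gained in K562 and 46 lost in NB4.

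Leaving out 1 library gave 78 to 208 lost and 52 to 89 gained regions in K562, and 41 to 59 lost and 60 to 101 gained in NB4. The lost shares were 2.31% to 6.17% in K562, beside 2.78% to 14.03% of all regions, and 1.10% to 1.58% in NB4, beside 0.874% to 1.42%. The gained shares were 1.54% to 2.76%, beside 4.64% to 7.30%, and 1.61% to 2.67%, beside 4.61% to 7.19%. Differences on KD in K562 then ran from -0.0866 to 0.150 points for the share of the list, from -0.720 to 3.23 points for the share of summits 3′ of the codon, from -0.0609 to 0.0278 for the log2 number and from -1.20 to 0.397 for the percentile. Over both lines the exon share ran from -0.106 to 0.943 points, the log2 number from -0.00713 to 0.0373 and the percentile from -0.117 to 0.683. Between lines the exon share ran from -0.499 to 0.771 points for K562 WT against HepG2 WT and from -0.828 to 1.27 points for NB4 Control against K562 Control. The sign turned without K562 Control 2, K562 RBFOX2 KD 1 or 2, or HepG2 WT 2. Where a lone library remained, no spread could be taken from its group.

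The replicate numbers showed no sign of pairing Control with KD libraries. Deviations of same-numbered libraries correlated at -0.0561 in K562 (1835 stop codons) and at -0.0241, -0.0276 and -0.116 in NB4 (1632). The K562 value is a single one, because with 2 libraries per group the deviations are mirror images. With the number as a replicate block, the share of the list over both lines differed by -0.577 points with an exact permutation p of 0.188 in place of 0.0667, and no call changed.

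The lists show which peaks were called. Depth, RNA level and methylation are not separable in them, and a weak peak can be missing from a list by chance. No comparison within a line can reach 0.05.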

Other observations

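Some values belong to no comparison above. CEBPE, a transcription factor of granulocyte maturation, and PRTN3, a granule protease, were listed around the stop codon in all 6 NB4 libraries and had no exon peak in the other lines. The folds of CEBPE were 26.6, 12.3 and 6.90 in Control and 8.53, 6.90 and 7.75 in RBFOX2 KD, and those of PRTN3 were 3.16, 4.96 and 2.86 in Control and 4.59, 4.76 and 5.16 in KD. In both genes the groups overlapped. CD33, a myeloid surface receptor, was listed in all 6 K562 and all 6 NB4 libraries, with folds of 9.21 to 12.5 and 4.17 to 10.7, and SPI1, a myeloid transcription factor, likewise, with 7.97 to 16.0 and 3.08 to 6.98.

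NFE2, an erythroid and megakaryocytic factor fixed as a K562 marker, was listed around the stop codon in all 6 NB4 libraries (8.27 to 21.1), in HepG2 WT 2 and in K562 Control 2 only among K562 libraries (26.3), although all 6 K562 lists held an exon peak of the gene. TGFB1 had no stop-codon peak in any list and an exon peak in 3 NB4 lists. CISH, a cytokine-induced inhibitor, had folds of 3.12 and 3.03 in HepG2, 17.98 and 19.7 in K562 WT, 40.7 in K562 Control 1, 41.0 and 39.4 in K562 RBFOX2 KD and 15.5 and 13.2 in NB4 Control 1 and 3. It had no stop-codon peak in K562 Control 2, NB4 Control 2 or any NB4 KD list, although all 6 K562 and all 6 NB4 lists held an exon peak of the gene.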
